A study of Homo sapiens with 2 samples.

Results

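The 50 genes described here encode proteins of the nucleolus that build ribosomes. They were chosen by name as growth genes that MYC commonly drives, each matched 1 row of the deposited table, and together they are 50 of 58302 rows. Polyadenylated RNA came from Tu212 cells, an established epithelial-derived line grown in culture. One group had received the empty pEZ vector and the other a pEZ plasmid encoding PRMT5, an arginine methyltransferase, both for 48 h. Each group is 1 line, 1 plasmid and 1 library, with 14119997 reads assigned to genes in the vector control and 19908258 in PRMT5 overexpression. No difference below has a replicate check, so the values compare these libraries and not the conditions. The interval beside a log2 ratio (PRMT5 overexpression over vector control) is the 95% Clopper-Pearson interval and covers counting error alone.

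Ribosome synthesis starts in the nucleolus, where RNA polymerase I transcribes a long precursor that is cut and modified into the ribosomal RNAs of both subunits. Small nucleolar ribonucleoproteins (snoRNPs) guide the methylation and pseudouridylation of the precursor, and separate sets of assembly factors mature the small and the large subunit. MYC is known to bind E-boxes near the starts of many of these genes and to raise their transcription. Fibrillarin, nucleolin and GAR1 carry glycine- and arginine-rich stretches, a kind of sequence that arginine methyltransferases modify.

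The E-box, the letters CACGTG, was searched because MYC is known to bind it, and the letters do not depend on the counts. The 50 genes were chosen as genes that MYC commonly drives. Their share of E-boxes is therefore no independent support for a tie to MYC. Promoter windows from RefSeq (GRCh38.p14) run from 250 bases before to 50 bases after each annotated start, and 43 of the 50 genes had at least 1 window. Of these, 19 genes (44.2%) held the letters in at least 1 window, against 13.1% of 7853 protein-coding genes averaging 200 reads or more and 8.77% of all 27305 genes in the RefSeq table. Of 110 further ribosome biogenesis genes with a window, 30 (27.3%) held them too, so the letters were also frequent in the wider pathway. The letters read the same on both strands. The 8 of the 19 genes with the most reads are shown in windows of 30 bases on the gene's own strand, with the E-box in capitals.

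DDX21 (chr10:68956604-68956633, plus strand): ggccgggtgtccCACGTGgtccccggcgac
GNL3 (chr3:52686026-52686055, plus strand): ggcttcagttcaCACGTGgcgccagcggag
FBL (chr19:39846356-39846385, minus strand): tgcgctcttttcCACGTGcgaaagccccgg
NAT10 (chr11:34105602-34105631, plus strand): aatgcgcttgcgCACGTGctgtctaccagt
PES1 (chr22:30591880-30591909, minus strand): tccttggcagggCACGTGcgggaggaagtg
GNL2 (chr1:37595917-37595946, minus strand): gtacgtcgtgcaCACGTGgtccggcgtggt
WDR43 (chr2:28894658-28894687, plus strand): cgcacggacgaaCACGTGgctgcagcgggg
UTP4 (chr16:69132621-69132650, plus strand): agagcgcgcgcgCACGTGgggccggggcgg

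The other 11 genes with an E-box were MYBBP1A, IMP4, MRTO4, NOP2, NOC3L, NOP14, GAR1, UTP20, LYAR, RRP9 and BYSL. Of the 19 genes, 18 (94.7%) had an E-box whose first base lay within 40 bases of an annotated start, on either side, while 33.8% of the 1029 well-read protein-coding genes with an E-box did. Of the 30 further ribosome biogenesis genes with an E-box, 18 (60%) had one that close, so this placement was not confined to the 50 genes. The limit of 40 bases was not set in the design, and the contrast depends partly on it. The box of NOP2, at base 36, lies just inside. Boxes of the further genes DHX37 and WDR46 at base 42 and EBNA1BP2 at base 43 lie just outside. In FBL the first base was base 7 of the transcript, and in DDX21 it lay 31 bases before the start. Of the other letters searched, CCGGAAG was in 34.9% of the 43 genes and 24.8% of well-read protein-coding genes, but also in 46.4% of the 110 further ribosome biogenesis genes and 33.3% of 60 ribosomal protein genes. The shares were, for GGGCGG 72.1% of the 43 and 79.6% of the well-read genes, and for CTCGCGAG 6.98% and 2.80%. These letters were counted on both strands. A match is a description of the letters and does not show that a factor bound there in these cells.

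**Figure D1:**
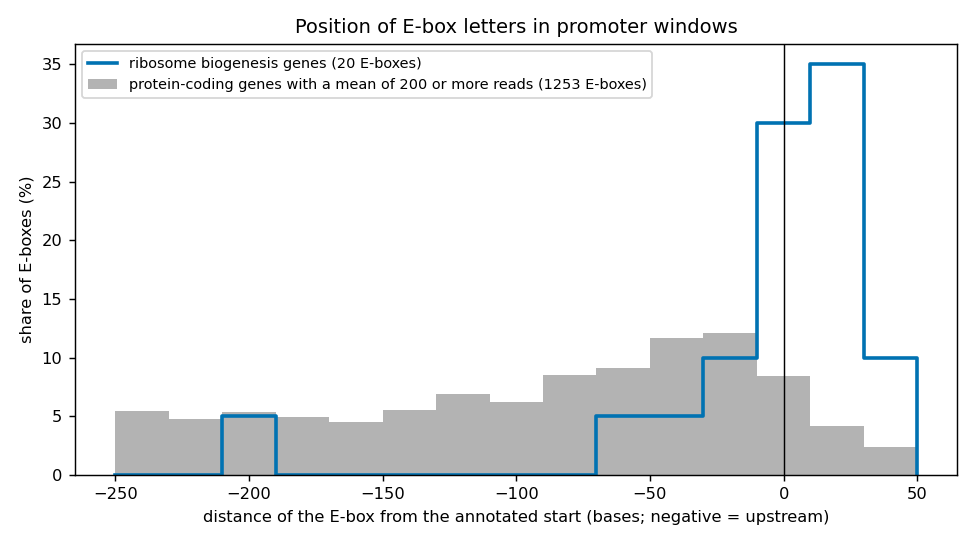
Share of E-boxes (%) by distance of the first base from the annotated start in bins of 20 bases, for 20 E-boxes in windows of the ribosome biogenesis genes (line) and 1253 in windows of protein-coding genes averaging 200 reads or more (bars). The line peaks just after the start and stands above the bars there. Of the 20 E-boxes 13 began after the start, against 126 of the 1253.

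PRMT5 itself was at 145 CPM (counts scaled to library size) in the vector control and 293 CPM with PRMT5 overexpressed, a log2 ratio of 1.01 (interval 0.94 to 1.09). MYC was at 114 CPM and 7.71 CPM, from 1630 and 152 reads. Its log2 ratio was -3.88 (interval -4.14 to -3.65). Among the other genes of the MYC network, MYCL had a log2 ratio of 0.01, MYCN had 0 reads in both libraries, and the dimer partner MAX was at -0.15 with an interval of -0.33 to 0.04. MXD1, a partner of MAX that opposes MYC, was at 30.8 and 6.24 CPM, a log2 ratio of -2.29. Of the other genes that oppose MYC through MAX, MXI1 was at -0.39 (interval -0.49 to -0.29), while MXD3, MXD4 and MNT were at 0.17, 0.07 and 0.12 with intervals including 0. MXD1, MXI1, MXD3 and MNT overlap exons of other counted genes, SNRNP27 in the case of MXD1, while MYC, MYCL, MAX and MXD4 do not.

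The ribosome biogenesis genes lay close to equal in both libraries. CPM are relative to the library, so a change in the RNA output of the whole cell would not be seen. MYC protein was not measured here, and a link between MYC and these values was not tested. All 50 passed the minimum of 10 reads, with 172 to 12576 reads per library. None was 1.5-fold or more higher or lower, a size reached upward by 1.84% and downward by 1.79% of the 10281 genes averaging 200 reads or more, called well-read genes here. Among all 17777 genes that reached 10 reads in either library those shares were 7.06% and 5.33%. The log2 ratios ran from -0.39 in NIFK to 0.43 in BOP1, with a median of 0.02 and a middle 50% from -0.06 to 0.13. The median over all well-read genes was 0.00. Shares this low leave little room below them, and the count of 0 does not set the 50 genes apart.

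A smaller size, 1.2-fold or more, was reached upward by 4 genes (BOP1, UTP15, PPAN and RRS1) and downward by NIFK alone. The shares of well-read genes past that size were 7.92% upward and 7.87% downward, so the 4 of 50 lay at the background and the 1 of 50 below it. A log2 ratio above 0 was found in 30 of the 50, against 49.4% of well-read genes, but that number was 24 when the libraries were scaled by their total counts and 34 with median-of-ratios size factors. The counting interval lay wholly above 0 for 13 genes and wholly below 0 for 6, where 19.2% and 19.1% of well-read genes did so. The summed level of all 50 was 4362 CPM in the vector library and 4473 CPM in the PRMT5 library, a log2 ratio of 0.04.

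**Figure D2:**
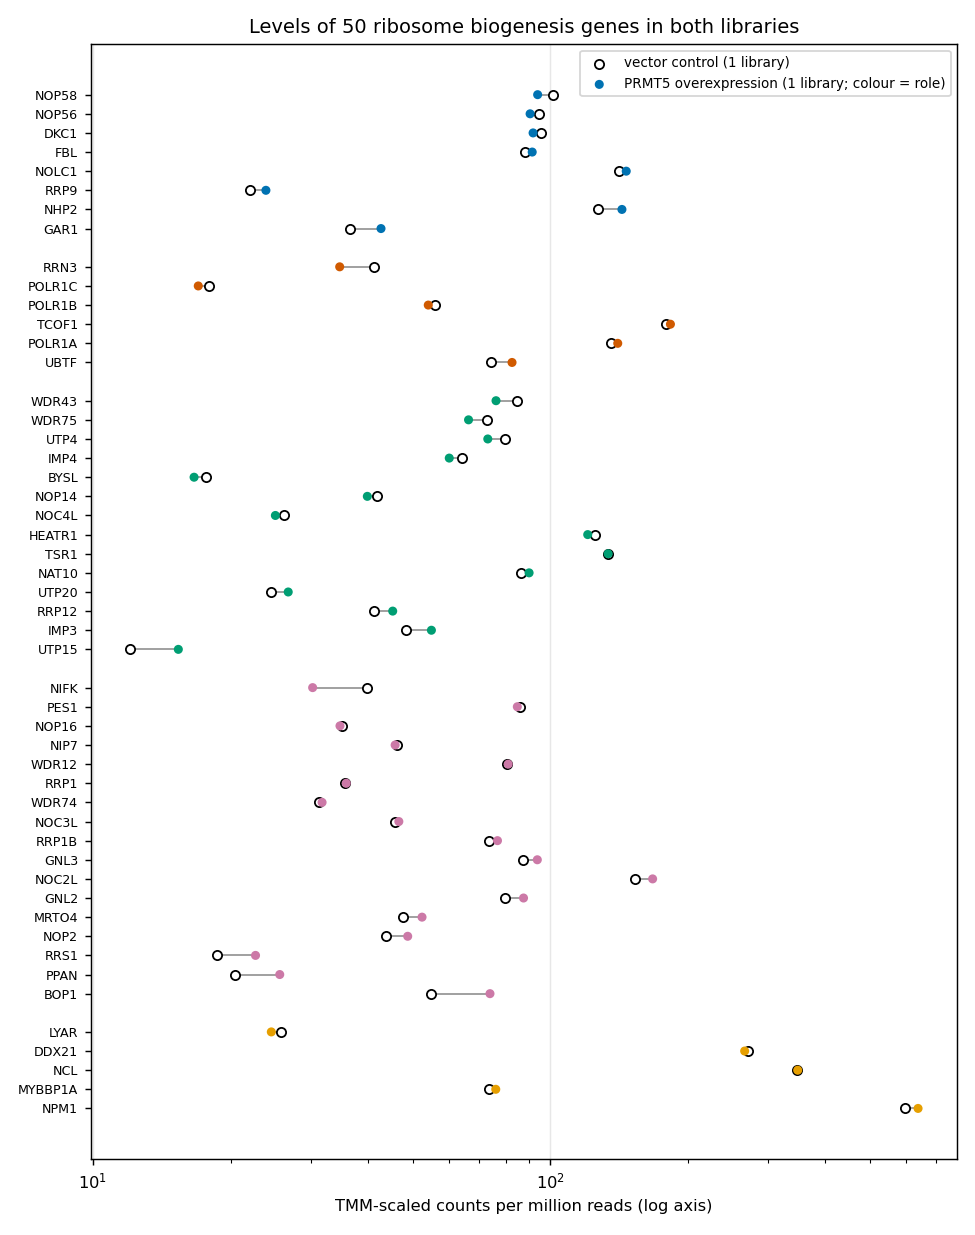
TMM-scaled CPM of the 50 genes (log axis) in the vector control library (open circles) and the PRMT5 overexpression library (filled circles, coloured by role). Each pair of points lies close together relative to the spread between genes, and NIFK and BOP1 show the widest gaps.

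The order of the genes was nearly the same in both libraries, with a Spearman rho of 0.990 between their CPM values across the 50 genes, which share both libraries and their depth. Levels differed far more between genes than between libraries, so a rho this high does not set the 50 genes apart. Per kilobase of merged exon, the histone chaperone and nucleolar scaffold protein gene NPM1 stood highest, at 156 and 167 CPM per kilobase. The H/ACA snoRNP gene NHP2 followed at 84.2 and 95.1, the helicase gene DDX21 at 53.9 and 53.1, and the nucleolin gene NCL at 50.1 and 50.2. DDX21 and NCL were so close per length that their order was not read. At the low end UTP15 was at 1.91 and 2.43 CPM per kilobase and UTP20 at 2.45 and 2.67. The medians over the 50 were 13.9 and 13.3 CPM per kilobase.

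The abundant and regulatory nucleolar proteins had a median log2 ratio of 0.00, the value of NCL, and a range from -0.07 to 0.10. NCL, which encodes nucleolin and lies on chromosome 2 from 231453531 to 231483641 (GRCh38, minus strand, ENSG00000115053), had 347 CPM in the vector library and 348 CPM in the PRMT5 library. Its log2 ratio of 0.00 had an interval of -0.05 to 0.06, the narrowest among the 50 after that of NPM1. NPM1 had 596 and 638 CPM, a log2 ratio of 0.10 (interval 0.06 to 0.14), so the PRMT5 overexpression library was slightly higher beyond counting error. Pseudogenes named after NPM1 held 2028 and 3016 reads, 23.9% and 24.0% of the reads of NPM1, with a log2 ratio of 0.11. How reads were divided among these copies was not tested. DDX21, an RNA helicase, was at 271 and 266 CPM, the polymerase I regulator MYBBP1A at 73.4 and 76.0 CPM, and LYAR, a nucleolar growth regulator, at 25.7 and 24.6 CPM. The intervals of these 3 genes all included 0.

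Among the snoRNP genes the values of the box C/D and H/ACA classes overlapped, and no test of a difference is possible with 1 library per group. FBL, the 2'-O-methyltransferase fibrillarin (ENSG00000105202, chromosome 19 from 39834458 to 39846414, minus strand), was at 88.1 CPM in the vector library and 91.4 CPM in the PRMT5 library, a log2 ratio of 0.05. Its core partners NOP56 and NOP58 were at -0.07 and -0.11 on the log2 scale, and only NOP58 had its interval (-0.21 to -0.01) below 0. Thus none of the 3 box C/D core genes had an interval above 0.

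Of the H/ACA core genes, DKC1, the pseudouridine synthase dyskerin, was at 95.7 and 91.8 CPM, and its log2 ratio of -0.06 had an interval including 0. NHP2 was at 127 and 144 CPM, with a log2 ratio of 0.18 (interval 0.09 to 0.26). GAR1 was at 36.5 and 42.7 CPM, a log2 ratio of 0.22 (interval 0.06 to 0.38). The remaining core partners, taken from the wider pathway list, were NOP10 of the H/ACA class at 0.07 (interval -0.05 to 0.20) and SNU13 of the box C/D class at -0.01. NHP2 and GAR1 thus had intervals above 0, and DKC1 and NOP10 did not. NHP2 shares exon bases with RMND5B, which was at -0.11, and their summed reads gave 0.08. NOLC1, a snoRNP chaperone, and RRP9, a protein of the U3 snoRNP, had log2 ratios of 0.05 and 0.12, both with intervals including 0.

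RNA polymerase I genes had a median log2 ratio of -0.01 over 6 genes. RRN3, the factor that makes polymerase I competent to start transcription, was at 41.2 CPM in the vector library and 34.6 CPM in the PRMT5 library. Its log2 ratio was -0.25 (interval -0.41 to -0.09), the second lowest of the 50. Pseudogenes named after RRN3 held 130 and 151 reads, 22.1% of its reads in both libraries, and also had a log2 ratio of -0.25. UBTF, which bends and opens ribosomal DNA, lay on the other side at 74.3 and 82.5 CPM, a log2 ratio of 0.15 (interval 0.04 to 0.26). The largest subunits POLR1A and POLR1B were at 0.05 and -0.05, POLR1C, which RNA polymerase III also uses, at -0.08, and TCOF1, the treacle protein that links transcription and processing, at 0.03. The intervals of these 4 genes included 0. POLR1C shares exon bases with XPO5, YIPF3 and LRRC73, and the sum of their reads with its own gave 0.08.

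Small subunit assembly had a median of -0.06 over 14 genes, with 8 below 0, where 49.4% of well-read genes were above 0. The UTP-A complex, which binds the precursor first and also supports its transcription, has 5 members here, and 4 were below 0. WDR43 was at 84.8 CPM in the vector library and 76.1 CPM in the PRMT5 library, a log2 ratio of -0.15 (interval -0.27 to -0.04). WDR75 was at 72.8 and 66.3 CPM, with a log2 ratio of -0.13 (interval -0.25 to -0.02). UTP4 was at 79.8 and 73.0 CPM, with a log2 ratio of -0.13 (interval -0.24 to -0.01). These 3 genes were 1.09-fold to 1.11-fold lower, each beyond counting error by a small margin. UTP4 shares exon bases with CHTF8, which was at 0.12, and their summed reads gave -0.06. The intervals of WDR75, UTP4 and NOP58 no longer lay below 0 with median-of-ratios size factors, while that of WDR43 did. HEATR1, the largest UTP-A protein, was at -0.05.

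The remaining UTP-A gene, UTP15, went the other way at 12.1 and 15.4 CPM, from 172 and 303 reads, the fewest of the 50. Its log2 ratio was 0.35 (interval 0.08 to 0.63). UTP15 shares exon bases with ANKRA2 on the other strand, and the summed reads of both gave 0.14. IMP3, of the U3 snoRNP, had a log2 ratio of 0.19 (interval 0.05 to 0.33), and its partner IMP4 was at -0.09. IMP3 shares exon bases with SNX33, which held more reads than IMP3, and their sum together with AC105020.6 gave 0.01. The other small subunit factors had intervals that included 0. They were BYSL at -0.09, NOP14 at -0.07, NOC4L at -0.06, TSR1 at 0.00, the RNA acetyltransferase NAT10 at 0.06, UTP20 at 0.12 and the export factor RRP12 at 0.14.

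Large subunit assembly had a median log2 ratio of 0.06 over 17 genes, and it held both ends of the range. Of the 17, 13 were above 0, beside 49.4% of well-read genes. BOP1, a member of the PeBoW complex that is needed to process the large subunit precursor, was at 55.0 CPM in the vector library and 73.9 CPM in the PRMT5 library. It was 1.34-fold higher, with a log2 ratio of 0.43 (interval 0.30 to 0.55). BOP1 (ENSG00000261236, chromosome 8 from 144262102 to 144291370, minus strand) has no exon in common with another counted gene. Its PeBoW partners PES1 and WDR12 were at -0.02 and 0.01, with intervals including 0, so the complex's genes did not differ alike.

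NIFK, which binds the proliferation antigen Ki-67 and acts in large subunit maturation, was at 39.7 CPM in the vector library and 30.2 CPM in the PRMT5 library. It was 1.31-fold lower, with a log2 ratio of -0.39 (interval -0.56 to -0.22). NIFK (ENSG00000155438, chromosome 2 from 121726945 to 121736923, minus strand) shares exon bases with NIFK-AS1, and their summed reads gave -0.33. PPAN had 20.5 and 25.6 CPM, a log2 ratio of 0.32 (interval 0.11 to 0.54). The readthrough gene PPAN-P2RY11 went from 293 to 275 reads between the libraries, which is -0.56 on the log2 scale, and PPAN summed with it and P2RY11 came to -0.02, so the value of PPAN is uncertain.

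RRS1, which helps bring the smallest ribosomal RNA into the particle, was at 18.7 and 22.7 CPM, a log2 ratio of 0.28 (interval 0.06 to 0.51). NOP2, a cytosine methyltransferase of large subunit RNA, was at 43.7 and 48.8 CPM and 0.16, and NOC2L and the GTPase gene GNL2 were both at 0.13, all with intervals above 0. With total-count scaling the intervals of NOP2, GNL2 and GNL3 no longer lay above 0, which left 10 such genes among the 50 in place of 13. The nucleostemin gene GNL3, at 0.10, had an interval whose lower end was at 0.00 and just above it, and MRTO4 was at 0.14 with an interval including 0. NOC2L, GNL3 and MRTO4 share exon bases with SAMD11, GLT8D1 and EMC1, and the summed reads gave 0.13, 0.15 and 0.05. The rest lay between -0.01 and 0.06, namely NOP16, NIP7, RRP1, WDR74, NOC3L and RRP1B, with intervals including 0.

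**Figure D3:**
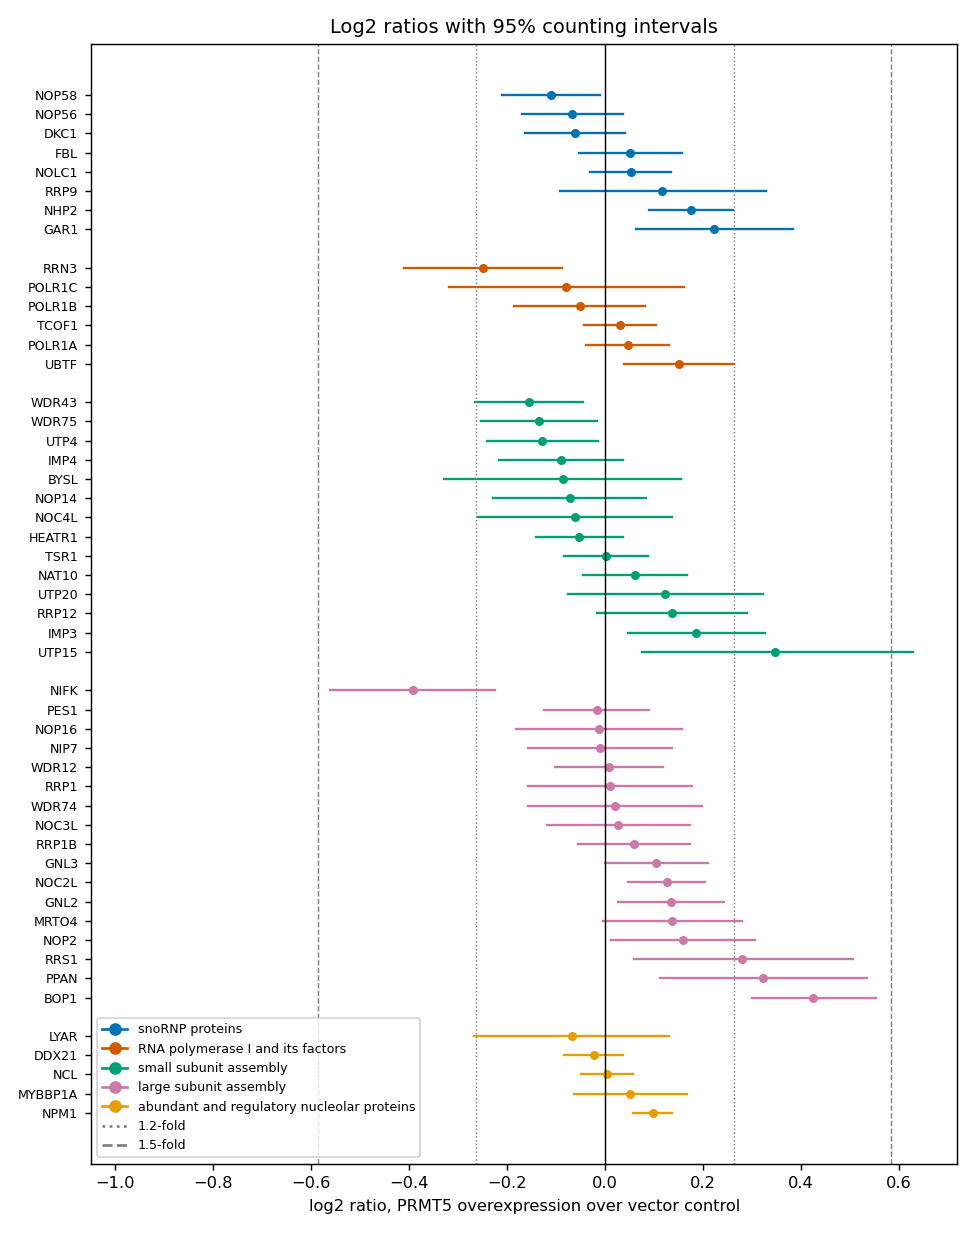
Log2 ratios of the 50 genes (points; PRMT5 overexpression over vector control) with 95% counting intervals (bars), grouped and coloured by role, with dotted lines at 1.2-fold and dashed lines at 1.5-fold. No point reaches the dashed lines, and NIFK at -0.39 and BOP1 at 0.43 lie farthest out.

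Log2 ratios were also set side by side by the presence of an E-box. The 19 genes with an E-box had a median log2 ratio of 0.05, with 11 above 0. The 24 with a promoter window and no E-box had a median of 0.00, with 13 above 0. None of the 19 was 1.2-fold or more higher or lower. Of 1029 well-read protein-coding genes with an E-box, 61 were higher and 80 lower by that size, so few of 19 would be. BOP1 and RRS1, both past 1.2-fold, have no promoter window and are in neither group. The medians over well-read protein-coding genes with and without an E-box were 0.01 and -0.01. No test was made of these differences.

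**Figure D4:**
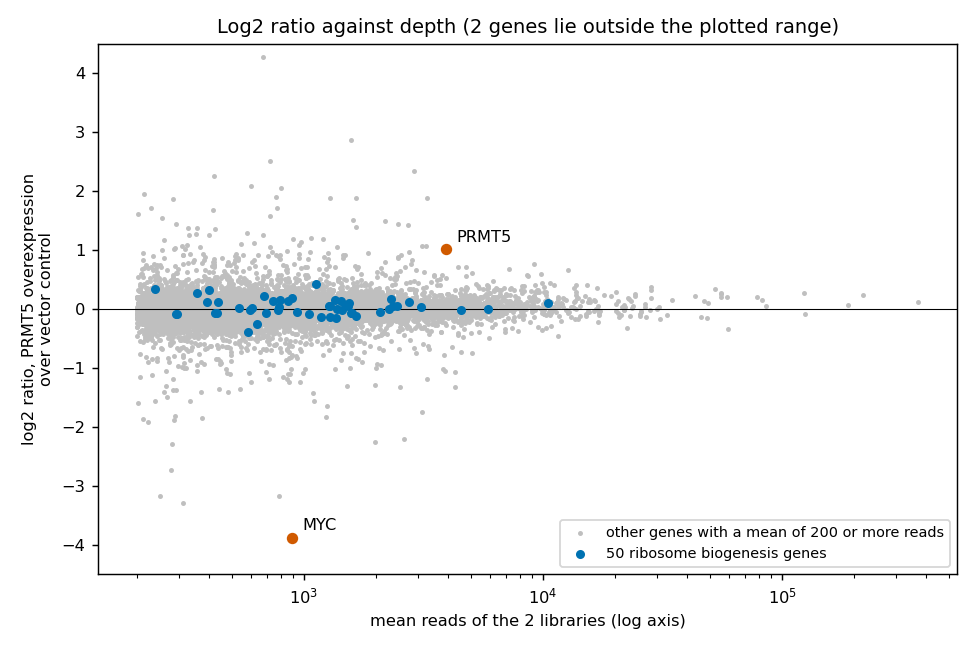
Log2 ratio (PRMT5 overexpression over vector control) against mean reads (log axis) for the 50 genes (blue), other well-read genes (grey), and MYC and PRMT5 (orange). The blue points lie along 0 at all depths. MYC lies at -3.88, and 2 grey genes are outside the plotted range.

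Several other properties were shared. A snoRNA or related scaRNA gene lies within the body of 9 of the 50 genes (18%) on the same strand in GENCODE release 29, against 2.03% of 9723 well-read protein-coding genes. The hosts were NCL, NOP56, NOP58, DKC1, WDR43, TSR1, PPAN, GNL3 and POLR1C. NOP56 holds 5 such genes, among them SNORD56, SNORD57 and SNORD86. The median log2 ratio of the 9 was -0.06 and that of the other 41 was 0.05, while hosts and non-hosts among well-read protein-coding genes had medians of -0.01 and 0.00. The snoRNAs themselves are not polyadenylated and were not analysed here. Exon bases were shared with a counted gene by 21 of the 50 genes (42%), against 36.6% of well-read protein-coding genes, and the median was 0.01 for these 21 and 0.03 for the other 29. Not all of the 21 are named with their partners above.

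The log2 ratio followed the GC content of the longest transcript across the 50 genes, with a Pearson r of 0.43 and a Spearman rho of 0.41. BOP1 and PPAN have 65.2% and 63.2% GC, and NIFK, RRN3 and WDR75 have 39.6%, 41.5% and 37.7%. Several genes did not follow this order. UTP15 has 38.7% GC and a log2 ratio of 0.35, NOC4L 64.8% and -0.06, and NOC3L, with the lowest GC of the 50 at 37.7%, was at 0.03. MYBBP1A and RRP1, at 60.9% and 60.7% GC, were at 0.05 and 0.01. Across 9720 well-read protein-coding genes the values were 0.12 and 0.20. These genes share both libraries, and the part of base composition in any single ratio was not tested. Transcript length (r = -0.05 with the log2 length of the principal transcript) and mean reads (r = -0.06 on a log2 scale) did not go with the ratio.

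The wider pathway was described from 131 further ribosome biogenesis genes, all measured. Their median log2 ratio was -0.01, with 61 above 0 and 70 below, where 49.4% of well-read genes were above 0. None was 1.5-fold or more higher or lower, beside 1.84% and 1.79% of well-read genes. In each direction 2 passed 1.2-fold, where 7.92% and 7.87% of well-read genes did. The exosome subunit gene EXOSC9 was highest at 20.7 and 27.8 CPM, a log2 ratio of 0.43 (interval 0.22 to 0.64), and shares exon bases with CCNA2. SENP3, a SUMO protease of the large subunit pathway, was at 0.28, EBNA1BP2 at 0.25, and EXOSC3 and the helicase gene DDX56 at 0.24. The lowest were NVL, an ATPase of large subunit maturation, at 27.9 and 21.8 CPM and -0.36, the polymerase I subunit gene POLR1G at -0.34, MDN1 and NOL8 at -0.23, and TAF1D at -0.22. Of these, EXOSC9, EBNA1BP2, EXOSC3, POLR1G, NOL8 and TAF1D share exon bases with other genes, and the interval of EXOSC3 included 0.

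Of the 10 other genes of the polymerase I machinery, 9 were below 0, with a median of -0.11, where 49.4% of well-read genes were above 0. Counts of signs this near 0 can move with the scaling, as the number above 0 among the 50 did. POLR1G, TAF1D and POLR1D had intervals below 0, as did 19.1% of well-read genes. Only TTF1, the termination factor gene, was above 0, at 0.17 with an interval including 0. The 46 small subunit and 50 large subunit genes of this wider list had medians of 0.01 and -0.02. The higher median of large subunit assembly among the 50 named genes was therefore not seen in the further genes of that step. The 10 other snoRNP genes had a median of -0.01, and the 15 exosome and exonuclease genes one of 0.03.

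The mRNAs of the ribosomal proteins that these factors assemble gave higher values. The 75 cytosolic ribosomal protein genes had a median log2 ratio of 0.13, with 61 above 0, 19 at 1.2-fold or more higher and 3 lower, beside 49.4%, 7.92% and 7.87% of well-read genes. They ran from RPS15 at -0.38 to RPL29 at 0.76, with RPL6 at the median, and 4 were 1.5-fold or more higher, beside 1.84% of well-read genes. E-boxes were in 6.67% of the 60 with a promoter window, against 44.2% of the ribosome biogenesis genes. Of 30 MYC targets outside ribosome assembly 29 were measured, with a median of 0.06, from the cell cycle kinase gene CDK4 at -0.16 to the fatty acid synthase gene FASN at 0.38, and LDHA at the median. None of these 29 was 1.5-fold or more apart, where 1.84% of well-read genes were higher and 1.79% lower by that size. Such shares leave little room below them in 29 genes. The differences between these lists have no test here.

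**Figure D5:**
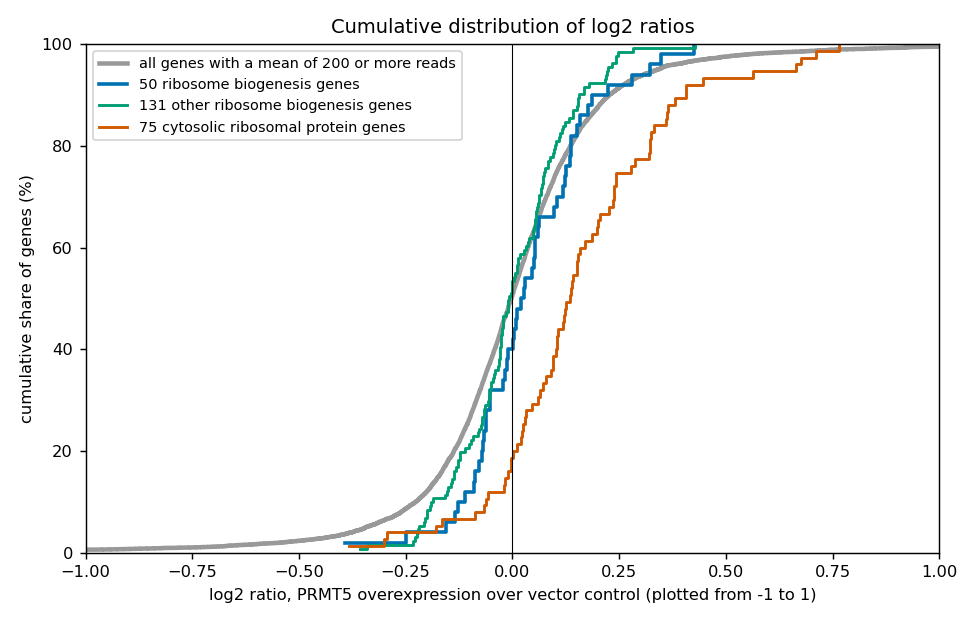
Cumulative share (%) of genes by log2 ratio (PRMT5 overexpression over vector control, plotted from -1 to 1) for the 50 genes, 131 other ribosome biogenesis genes, 75 cytosolic ribosomal protein genes and all well-read genes. The ribosome biogenesis curves cross 50% near 0 and the ribosomal protein curve at 0.13.

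Markers were set beside these values for both libraries. All 11 epithelial markers had reads, led by KRT5 at 4575 and 5077 CPM, and their summed level was 10929 and 12126 CPM. The 7 fibroblast markers summed to 5.89 and 2.18 CPM. They differed among themselves, with DCN at 12 and 0 reads, COL1A2 at 26 and 7, and PDGFRB at 25 and 29. The log2 ratio of PDGFRB was -0.24 (interval -1.08 to 0.58). The 6 leukocyte markers summed to 21.9 and 17.1 CPM, of which CD68 made up 20.1 and 16.2 CPM (log2 ratio -0.30). The defining markers PTPRC, CD3E and ITGAM had 0 and 4, 6 and 0, and 12 and 3 reads. The 5 endothelial markers summed to 5.96 and 4.46 CPM, with CDH5 and KDR at 0 reads in both libraries. The part of other cells in the values of the 50 genes was not tested, and fewer cells of a type and less RNA per cell cannot be told apart in bulk RNA.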

How the data were processed

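Polyadenylated RNA of 2 libraries was measured, grouped by the genotype in the labels. Per the submitters' processing notes the tools were HISAT2 2.1.0, StringTie 1.3.4b, CASAVA 1.8 and edgeR, on GRCh38 (also written hg38), with no role stated. The counter and its use of strand are not given in the sources used here. The authors deposited raw counts, which every main value rests on. The deposited FPKM were used as an alternative only. In 92.2% of 11471 genes above 100 reads in each library, the length behind FPKM equalled, within 1%, the summed length of all distinct exons in GENCODE release 29, with overlapping exons added repeatedly. It was 14289 bases for NOP56, whose merged exons span 5398, so levels between genes used CPM per kilobase of merged exon.

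Rows of 1 symbol were summed. Counts were scaled by TMM over genes that reached 10 reads in either library (edgeR 4.0.16, R 4.3.3; factors 1.01 and 0.990), and put on a log2 CPM scale (prior count 1). A positive log2 ratio means a higher level with PRMT5 overexpressed. With 1 library per group nothing was tested. Reads are not independent molecules. Gene positions are those of the deposited table, and 47 of the 50 equalled GENCODE release 29. Exon-sharing genes are those with a common exon base there, whichever the strand, and 10 reads in either library. Lists held 326 entries, all matched, 4 of them by gene ID. The background of well-read genes averages 200 reads or more, a minimum set after the members' depths were seen. The design named 50 reads, where 10.5% and 10.8% of 13282 genes were 1.2-fold or more higher and lower, and 2.7% and 2.42% were past 1.5-fold. The members and lists were chosen with earlier results of these data known. Genes named from other lists were the highest, lowest and nearest the median, and the 5 highest and 5 lowest of the wider pathway with a mean of 50 or more reads; MXD1, MXI1, MXD3, MXD4, MNT, MAX, MYCL, MYCN, POLR1D, TTF1, NOP10, SNU13 and single markers were added after their values were seen. Scripts were tested on simulated data. Python 3.11.15, numpy 2.4.6, pandas 2.3.3, scipy 1.17.1, matplotlib 3.10.9 and DESeq2 1.42.0 were used. Alternatives are listed at the end.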

Additional observations from a re-analysis of the deposited data

How the results depend on the processing

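Alternatives were median-of-ratios (DESeq2) size factors, total counts, scaling without the mitochondrial genome, prior counts of 0.1 and 5, no minimum and a minimum of 50 reads, the row with the most reads per symbol, deposited FPKM with a pseudocount of 1, sums with exon-sharing genes, only genes that share no exon base, protein-coding genes only, the mean, and leaving out the 10 members with the fewest reads. Scaling on well-read genes was added after the data were seen. Of 629 recalculated member ratios, 626 stayed within their counting intervals and 0 reached 1.5-fold. Most settings change only the scaling or the prior count, or leave the value as it was. They could hardly move a ratio out of its interval, so the 626 is no measure of robustness. Sums with exon-sharing genes change the reads of the 21 members that share exon bases. NHP2, IMP3 and PPAN left their intervals in these sums, at 0.08, 0.01 and -0.02. The median of the 50 ran from -0.005 to 0.05, and the median of all measured genes from -0.03 to 0.02.

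The count at 1.2-fold or more higher, 4, became 2 in sums with exon-sharing genes, 2 among genes sharing none, 1 with FPKM and 1 without the 10 members with the fewest reads. The count lower, 1, became 2 with total counts and 0 among genes sharing none. The 6 genes with an interval below 0 became 3 with median-of-ratios size factors and 3 with no minimum. Among the 29 genes without a shared exon, 18 were above 0 and 6 had an interval above 0; this set holds fewer genes by construction. In sums, 1 other pathway gene was 1.5-fold apart, against 0. The PRMT5 log2 ratio was 0.93 with FPKM, where the pseudocount shrinks ratios by construction. Members with few reads limit what could be detected, since the interval half-width was 0.28 at most and 0.12 in the median. No paired analysis was possible because neither group holds more than 1 library.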
